A study of Homo sapiens with 9 samples.

Results

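The BCL2 family of apoptosis regulators was followed in HAL-01 leukemia cells after disruption of a MEF2C enhancer. The 10 members examined were BCL2, BCL2L1, MCL1, BCL2L11, BAX, BAK1, PMAIP1, BBC3, BMF and BID. They were chosen by GENCODE gene symbol, with transcript values summed per gene, out of 62700 genes in the deposited tables. All 10 were among the 14436 genes with enough counts to be tested.

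HAL-01 is a single human B cell acute lymphoblastic leukemia line with the t(17;19) translocation, which encodes the fusion transcription factor TCF3::HLF. Every library came from HAL-01 cells with stable Cas9-GFP expression, harvested on day 13. The MEF2C-enhancer KO class held 3 libraries with sgRNA_96 and 3 with sgRNA_97, and the control class held 3 libraries with the scrambled guide SCR1. The replicates were numbered 1, 3 and 4, and since separate cultures were not stated, every p measures the spread between these samples, which may be technical. How many cells of each culture were edited was not analysed here. The study's RNA-seq methods do not say whether transduced cells were sorted first. Because RNA was taken from many cells together, fewer cells of a type and less RNA per cell cannot be told apart.

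The 2 guides that the study designed against the HLF motif of this enhancer are shown because they define the perturbation, with the PAM read from hg38 in capitals.
E.1: tagcattacataatacatgtGGG
E.2: ttagcattacataatacatgTGG
Each protospacer had a single exact match on the 25 chromosomes searched, at chr5:88825103-88825122 for E.1 and at chr5:88825104-88825123 for E.2, both on the minus strand. The sites shared 19 bases and were offset by 1 base, so the guides cut at nearly the same place. They lay in an intron of MEF2C, with 0 annotated exons over them, and 79134 bases from the 5′ end of the gene. The labels do not tie the names sgRNA_96 and sgRNA_97 to these sequences.

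BCL2 family proteins decide whether the outer mitochondrial membrane stays intact. Pro-survival members hold the effectors BAX and BAK1 in check, the effectors form the pores that release cytochrome c, and the BH3-only members trigger death by binding either group through a short helix called the BH3 domain. B cell leukemias often depend on BCL2 or MCL1, which is the basis of the BH3 mimetic drugs, and BIM, the product of BCL2L11, is a main trigger of death in B lineage cells.

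The helix that joins the family can be read in the reference mRNA sequences of its members. In the reference coding sequence of each member's canonical transcript, a leucine codon followed after 3 codons by a glycine or alanine codon and an aspartate codon was searched for, and all 10 members held 1 such stretch. The 30 bases from that leucine codon are shown because they are what pro-survival and pro-death members share, with those codons in capitals.
BCL2: CTCcgccaggccGGCGACgacttctcccgc
BCL2L1: CTGagggaggcaGGCGACgagtttgaactg
MCL1: TTAcgacgggttGGGGATggcgtgcagcgc
BAX: CTCaagcgcatcGGGGACgaactggacagt
BAK1: CTCgccatcatcGGGGACgacatcaaccga
BCL2L11: TTGcggcgtattGGAGACgagtttaacgct
PMAIP1: CTCaggagatttGGAGACaaactgaacttc
BBC3: CTGcggcggatgGCGGACgacctcaacgca
BMF: CTTcagtgcattGCAGACcagttccaccgg
BID: CTCgcccaggtcGGGGACagcatggaccgt
The codon before the aspartate codon was glycine in 8 members and alanine in 2, BBC3 and BMF. On hg38 the pro-survival stretches lay at chr18:63318349-63318378 (BCL2), chr20:31721922-31721951 (BCL2L1) and chr1:150578865-150578894 (MCL1), all on the minus strand. The effector stretches lay at chr19:48955787-48955816 on the plus strand (BAX) and chr6:33575387-33575416 on the minus strand (BAK1). For the BH3-only members they lay at chr2:111150103-111150132 (BCL2L11) and chr18:59902673-59902702 (PMAIP1) on the plus strand, and at chr19:47226579-47226608 (BBC3), chr15:40104195-40104224 (BMF) and chr22:17739415-17739444 (BID) on the minus strand.

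The libraries held between 15212453 and 29777350 estimated counts, the most in SCR1 replicate 1, and mitochondrial genes took 5.97 to 7.01% of them. All 8 B lineage markers had a median of at least 1 TPM, while 3 of 5 T lineage markers were listed at 0 in every library and their sum reached at most 0.156 TPM. The 5 myeloid markers summed to between 13.1 and 16.4 TPM in SCR1 and between 11.99 and 16.7 TPM in KO, most of it from CSF1R. Of 5 erythroid and megakaryocytic markers, 4 were listed at 0 throughout. MEF2C, the gene of the targeted enhancer, was read at 560, 559 and 536 CPM in SCR1 replicates 1, 3 and 4. Its values were 495, 498 and 510.1 CPM with sgRNA_96 and 553, 505 and 495 CPM with sgRNA_97. CPM is a count scaled to a common library size, in counts per 1000000. Of the 6 KO libraries 5 lay below all controls, and the log2 fold change was −0.12 ± 0.042 (SE, adjusted p = 0.062 in the quasi-likelihood test of edgeR). The alternatives without sgRNA_97 replicate 1 (adjusted p = 0.0143) and with DESeq2 (adjusted p = 0.0269) passed the threshold of 0.05.

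Before the comparison, the members differed widely in level. TPM, which divides by transcript length, allows genes to be compared. In SCR1 the highest level was that of BAX, at 218.6 ± 9.96 TPM (SD, n = 3). BID and MCL1 followed at 64.2 ± 2.76 and 61.8 ± 1.72 TPM, with overlapping ranges. BCL2 stood at 43.2 ± 1.99 TPM, apart from both neighbours in this order.

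The next levels were those of PMAIP1 at 33.6 ± 2.39 TPM, BCL2L1 at 28.3 ± 1.67 TPM and BAK1 at 27.9 ± 1.44 TPM. PMAIP1 was apart from BCL2L1, whereas BCL2L1 and BAK1 overlapped. Lowest were BBC3 at 15.4 ± 1.47 TPM, BCL2L11 at 10.3 ± 0.893 TPM and BMF at 1.96 ± 0.187 TPM, each apart from its neighbours. Thus the BH3-only members covered both a level as high as that of MCL1, for BID, and the lowest level, for BMF. Part of the BAX level came from transcripts of 300 and 383 bases, which took 9.03 and 9.12% of its TPM, and TPM weighs a read on a short transcript more than one on a long transcript.

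**Figure D1:**
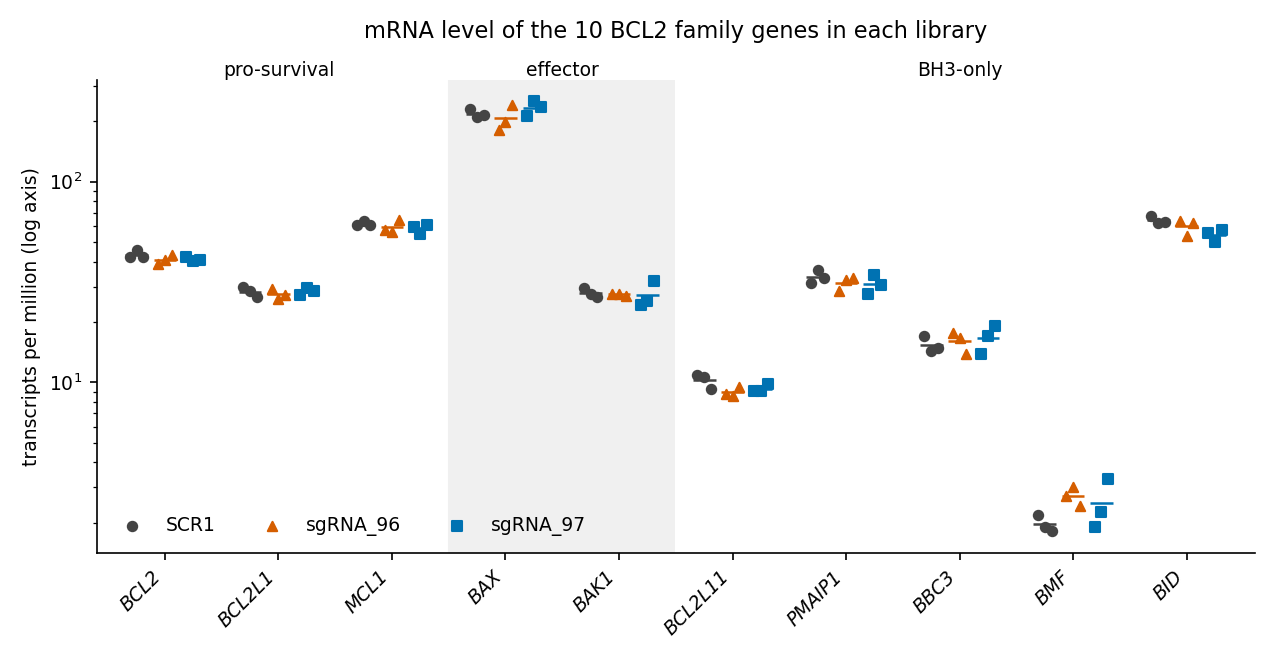
TPM of the 10 members on a log axis, with 1 point per library, a line at each group mean, and members grouped by role. BAX lies highest in every library, between 182 and 251 TPM, and BMF lowest, between 1.81 and 3.31 TPM, and the 3 groups lie close together within each gene.

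Comparing the 6 KO with the 3 SCR1 libraries asks whether loss of the HLF motif moves the family. Of the 10 members, 1 fell and 0 rose at an adjusted p under 0.05 in edgeR. Across all 14436 genes tested 20.7% were called, 10.1% as higher and 10.6% as lower, so 1 of 10 is not above the background. The median log2 fold change of the members was −0.08, against 0.003 over all genes, and 8 of 10 members had a negative value. The median size of a change was 0.147 over all genes, and among genes called it was 0.28. The KO and SCR1 ranges of CPM did not overlap for 3 members, BCL2, MCL1 and BCL2L11, all lower in KO, while 20.3% of all genes had such ranges. In TPM the ranges overlapped for all 10 members, these 3 included, while 15.3% of all genes had ranges apart.

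**Figure D2:**
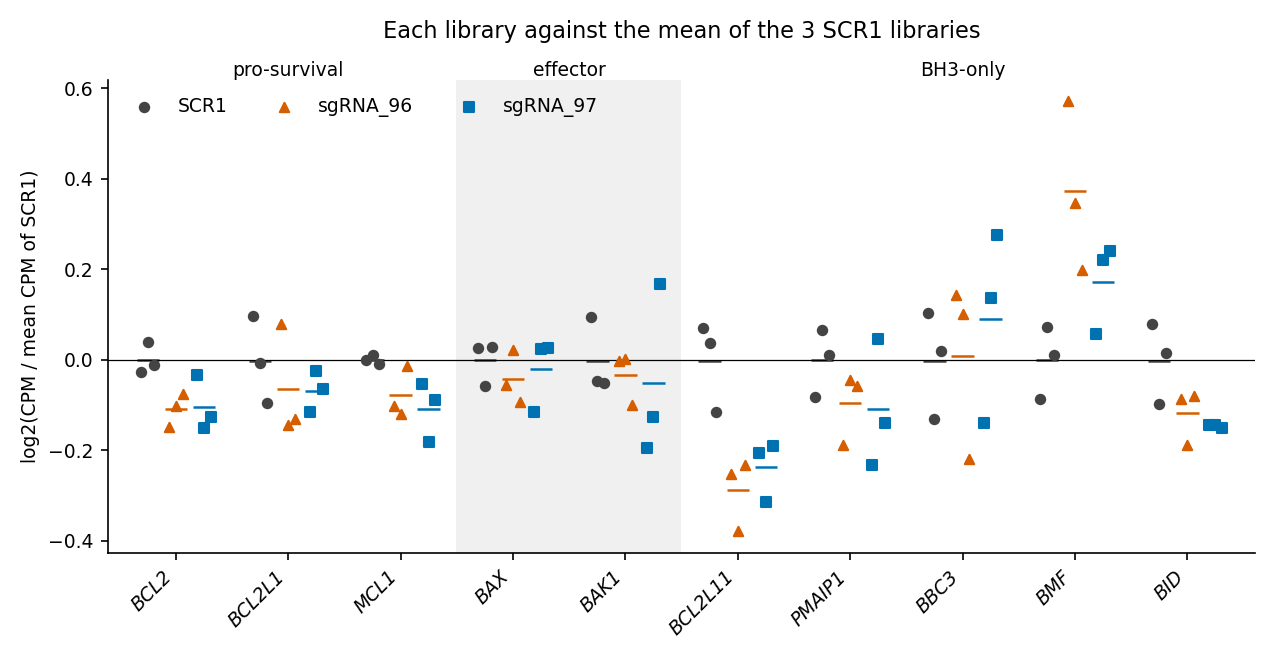
log2 of the CPM of each library over the mean CPM of the 3 SCR1 libraries, by member and role, with 1 point per library and a line at each group mean. All 6 KO points of BCL2L11 lie below its 3 SCR1 points, and those of BCL2 and MCL1 do so by a smaller distance.

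BCL2L11, which encodes the BH3-only protein BIM, was the member that fell. It was read at 35.7, 34.9 and 31.4 CPM in SCR1 replicates 1, 3 and 4. With sgRNA_96 it was read at 28.6, 26.2 and 28.97 CPM, and with sgRNA_97 at 29.5, 27.4 and 29.8 CPM. Every KO library was below every control library, with no overlap. The log2 fold change was −0.26 ± 0.065 (SE, edgeR adjusted p = 0.00987), a change of −16.7%. These values rested on 446 to 1053 counts per library. The call was lost without SCR1 replicate 1 (log2 fold change −0.23, adjusted p = 0.0757) and with a correction for mean transcript length (−0.18, adjusted p = 0.155). In limma on TPM, the smallest adjusted p of 3 settings was 0.292.

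For each guide, BCL2L11 was lower than in the shared SCR1 libraries. The log2 fold change was −0.29 ± 0.079 (SE) with sgRNA_96 (adjusted p = 0.0275 in edgeR) and −0.24 ± 0.079 with sgRNA_97 (adjusted p = 0.0545). Both values use the same 3 controls, so they are not independent of each other. The guides differed from each other by 0.05 on the log2 scale, with a 95% interval of −0.12 to 0.22 and an adjusted p of 1. The sgRNA_96 call was lost without sgRNA_96 replicate 3 (adjusted p = 0.136), SCR1 replicate 1 (0.127) or SCR1 replicate 3 (0.0685). That of sgRNA_97 passed the threshold without sgRNA_96 replicate 1 or without SCR1 replicate 4 (0.0497 in each case).

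The transcript shares of BCL2L11 overlapped between the groups. BCL2L11-204, whose 198 codons encode the extra-long form BIM-EL, held 80.7 to 83.6% of the gene's TPM in SCR1 and 76.1 to 81.6% in KO. BCL2L11-205, a short transcript with 112 codons and without the 10 codons shown above, held 0 to 4.71% in SCR1 and 3.95 to 12.1% in KO. Over the 7 of 14 transcripts that do encode that stretch, BCL2L11 stood at 9.27 to 10.6 TPM in SCR1 and 7.22 to 8.99 TPM in KO, which did not overlap. Over all its transcripts the ranges, 9.27 to 10.9 TPM in SCR1 and 8.55 to 9.82 TPM in KO, overlapped. The 7 transcripts include BCL2L11-209, which is annotated for degradation by nonsense-mediated decay. It held 6.46 to 13.6% of the gene's TPM in SCR1 and 2.64 to 13.1% in KO. Whether the ranges stay apart without it was not computed, and 15.3% of all genes had TPM ranges apart. Transcript shares were estimated by Salmon from reads that several transcripts share and were not tested.

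All 3 pro-survival members had slightly lower values in KO, and none passed the threshold in edgeR. At an unadjusted p under 0.05 in edgeR there were 2 of 3, BCL2 and MCL1. The share of all genes at that unadjusted p was not computed, while 20.7% were called after adjustment. At an adjusted p under 0.05 DESeq2 called 1, BCL2, and limma on TPM called 0. BCL2, the founding member that blocks BAX and BAK1, was read at 209.5, 219 and 212 CPM in SCR1 replicates 1, 3 and 4. With sgRNA_96 it reached 193, 199 and 203 CPM, and with sgRNA_97 209, 192 and 196 CPM. All 6 KO libraries lay below all controls, but sgRNA_97 replicate 1 nearly reached them. BCL2 had a log2 fold change of −0.11 ± 0.041 (SE, edgeR adjusted p = 0.0805), or −7.04%. Without sgRNA_97 replicate 1 it was 0.0467, and with DESeq2 it was 0.0423.

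MCL1, a short-lived pro-survival protein on which many leukemias rely, varied little in the controls. It was read at 179.9, 181 and 179 CPM in SCR1, at 168, 166 and 178 CPM with sgRNA_96, and at 174, 159 and 169 CPM with sgRNA_97. The KO values again lay below every control, with sgRNA_96 replicate 4 closest. The log2 fold change was −0.09 ± 0.043 (SE, edgeR adjusted p = 0.142) and a 95% interval of −0.18 to −0.001 before adjustment. BCL2L1, the gene of BCL-XL, was read at 53.7, 50.0 and 47.0 CPM in SCR1 and at 45.4 to 53.0 CPM in KO, with a median of 47.2. Its ranges overlapped, and its log2 fold change was −0.07 ± 0.061 (adjusted p = 0.477 in edgeR). The interval of BCL2L1, −0.20 to 0.06, leaves room for a fall of the size seen for BCL2.

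Splicing decides in part what these genes encode, since the short form of BCL2L1 and the short forms of MCL1 are known to act against survival. BCL2L1-205, with the 170 codons of the short form BCL-XS, held 0 to 2.96% of the gene's TPM in SCR1 and 0 to 12.9% in KO, with means of 1.71 and 8.14%. MCL1-202, the full-length form with 350 codons, held 69.6 to 80.3% of MCL1 TPM in SCR1 and 53.8 to 73.2% in KO. MCL1-205, with 197 codons, held 13.7 to 24.8% in SCR1 and 19.7 to 37.9% in KO. BCL2-201, the canonical transcript with 239 codons, held 48.8 to 50.0% of BCL2 TPM in SCR1 and 35.6 to 47.7% in KO. BCL2-206, which has no annotated reading frame, held 17.9 to 23.2 and 21.7 to 38.8%. Only BCL2-201 had ranges that did not overlap among these 5 transcripts, and no share was tested. How often the shares of all transcripts lie apart was not computed, while 15.3% of all genes had TPM ranges apart.

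Neither effector was called. BAX was read at 118, 111 and 118 CPM in SCR1 and between 107 and 118 CPM in KO, with a median of 115. Its log2 fold change was −0.03 ± 0.047 (SE, adjusted p = 0.697 in edgeR), with an interval of −0.13 to 0.07. BAK1 was read at 46.4, 42.0 and 41.9 CPM in SCR1 and between 37.9 and 48.8 CPM in KO, with a median of 42.0. BAK1 differed by −0.04 ± 0.072 in log2 (adjusted p = 0.740 in edgeR), and its interval ran from −0.19 to 0.11. For both the ranges overlapped, and edgeR, DESeq2 and limma called 0 of 2, with 0 of 2 at an unadjusted p under 0.05 in each.

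Among the other BH3-only members BMF had the largest positive value. BMF encodes a BH3-only protein that is released from the cytoskeleton when cells lose attachment. It was read at 5.87, 6.56 and 6.29 CPM in SCR1, at 9.27, 7.93 and 7.16 CPM with sgRNA_96, and at 6.49, 7.26 and 7.36 CPM with sgRNA_97. Of 6 KO libraries 5 lay above all controls, and sgRNA_97 replicate 1 lay within them. The log2 fold change was 0.28 ± 0.13 (SE, edgeR adjusted p = 0.127) and an interval of 0.016 to 0.55. It was 0.38 with sgRNA_96 (adjusted p = 0.0957 in edgeR) and 0.18 with sgRNA_97 (adjusted p = 0.437), and the guides differed by −0.20, with an interval of −0.51 to 0.10 and an adjusted p of 1. With 98 to 173 counts per library, BMF was the member with the fewest counts.

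BID, which caspase-8 cleaves to link death receptors to mitochondria, was read at 56.2, 49.7 and 53.8 CPM in SCR1. Values were 50.1, 46.7 and 50.4 CPM with sgRNA_96 and 48.2, 48.2 and 47.9 CPM with sgRNA_97. Only the lowest control, SCR1 replicate 3, fell within the KO range. BID thus had a log2 fold change of −0.14 ± 0.053 (SE, edgeR adjusted p = 0.0828), and without SCR1 replicate 3 it was −0.18 (adjusted p = 0.0417). PMAIP1, the gene of NOXA, which binds MCL1, was read at 41.3, 45.8 and 44.1 CPM in SCR1 and at 37.2 to 45.1 CPM in KO, with a median of 40.8. The difference was −0.09 ± 0.065 in log2 (adjusted p = 0.334 in edgeR). BBC3, the gene of the p53 target PUMA, was read at 17.2, 14.7 and 16.3 CPM in SCR1 and at 13.8 to 19.4 CPM in KO, with a median of 17.4. BBC3 differed by 0.05 ± 0.10 in log2 (adjusted p = 0.756 in edgeR), and PMAIP1 and BBC3 both had overlapping ranges.

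The share of a gene's TPM that came from transcripts with the 10 codons of the BH3 stretch was also computed, with no test. The largest differences between group means were those of BCL2L11, at 98.4 ± 2.72% (SD, n = 3) in SCR1 and 88.5 ± 5.36% (n = 6) in KO, BMF, at 93.8 ± 10.8% and 86.3 ± 14.5%, and BCL2, at 78.8 ± 2.84% and 71.6 ± 6.46%. For all of these the ranges overlapped. MCL1 was at 95.4 ± 1.07% and 94.8 ± 2.03%, and BCL2L1 at 84.05 ± 4.62% and 86.0 ± 8.57%. BAK1 was at 100% in every library. PMAIP1 was at 92.2 ± 2.502% (SD, n = 3) in SCR1 and 96.9 ± 3.05% (n = 6) in KO. BAX was at 64.3 ± 4.77% and 60.2 ± 8.73%, since BAX-210, BAX-211 and BAX-208 lack the stretch. BID was at 59.6 ± 11.1% and 60.7 ± 7.08%, with 30.1% of its SCR1 TPM in BID-204, whose 99 codons do not include it. BBC3 varied most, from 42.8 to 89.0% over the 9 libraries, so its split between transcripts was poorly resolved.

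**Figure D3:**
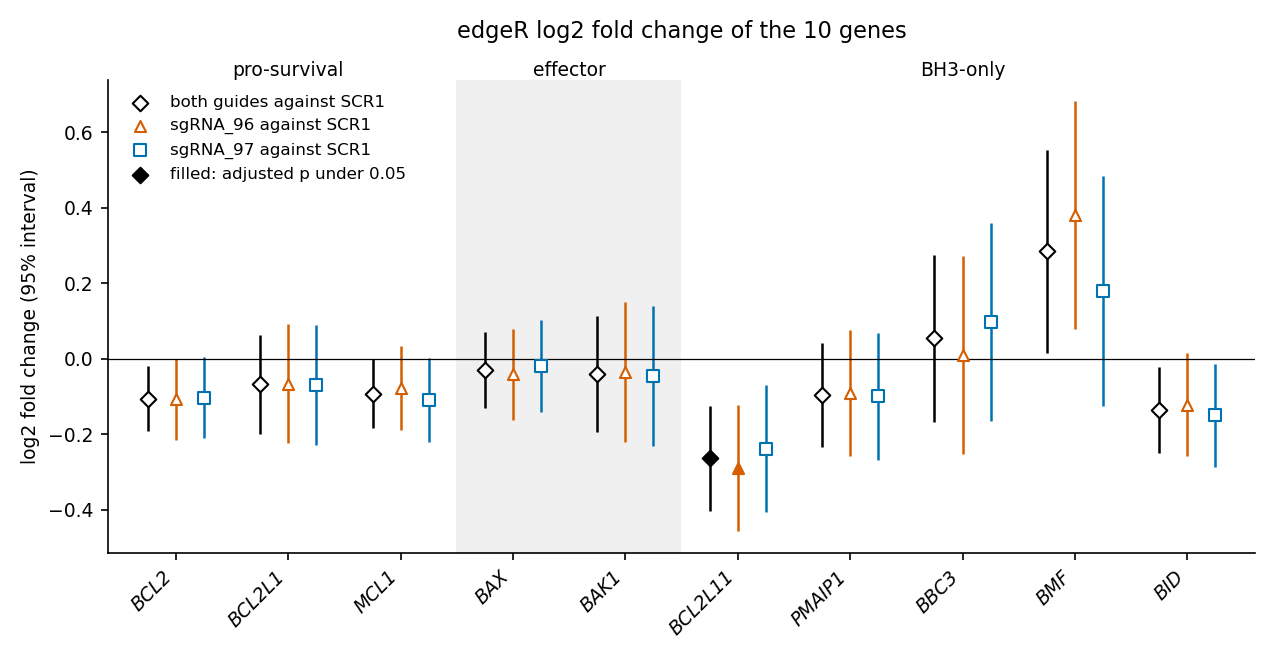
edgeR log2 fold change with its 95% interval for each member, for both guides together, sgRNA_96 and sgRNA_97 against SCR1. Filled symbols have an adjusted p under 0.05, which held for BCL2L11 with both guides together and with sgRNA_96.

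Against SCR1, each guide alone called few members. With sgRNA_96 edgeR called 1 of 10 members, BCL2L11, where 11.2% of all genes were called. With sgRNA_97 edgeR called 0 of 10, where 15.1% of all genes were called, and 2 members, BCL2L11 and BID, had an unadjusted p under 0.05. The share of all genes at that unadjusted p was not computed. DESeq2 and limma on TPM also called 0 of 10 with sgRNA_97. Between the guides 0.0208% of genes were called and 0 of 10 members, with 0 at an unadjusted p under 0.05 in edgeR, DESeq2 and limma.

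The balance of pro-survival and pro-death mRNA was taken as the log2 ratio of the summed TPM of the 3 pro-survival members to that of the 7 pro-death members. It was −1.55, −1.40 and −1.49 in SCR1 replicates 1, 3 and 4. With sgRNA_96 it was −1.39, −1.47 and −1.53, and with sgRNA_97 it was −1.42, −1.64 and −1.57. All groups overlapped. The mean was −1.48 ± 0.076 (SD, n = 3) in SCR1 and −1.50 ± 0.096 (n = 6) in KO, a difference of −0.025. That difference is smaller than the SD within groups, 0.089. No test was made of this score.

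The class sums behind the balance are given as values, with no test. The pro-survival sum was 130 to 138 TPM in SCR1 and 123 to 135 TPM in KO. The effector sum, mostly BAX, was 238 to 259 TPM in SCR1 and 209.6 to 277 TPM in KO. The BH3-only sum was 122 to 129 TPM in SCR1 and 108 to 121 TPM in KO, and only this sum had ranges that did not overlap. Its mean in KO was 0.926 of that in SCR1, against 0.960 for the pro-survival sum and 1.01 for the effector sum. Most of the BH3-only difference lay in BID, which was not called, with means of 64.2 TPM in SCR1 and 57.1 TPM in KO. PMAIP1 had means of 33.6 and 31.0 TPM and BCL2L11 of 10.3 and 9.12 TPM. BBC3 (15.4 and 16.3 TPM) and BMF (1.96 and 2.60 TPM) were higher in KO. Among single genes, 15.3% of all tested had TPM ranges apart. Within the pro-survival sum MCL1 held 46.3 ± 0.543% in SCR1 and 46.1 ± 1.26% in KO, and BCL2 held 32.4 ± 0.716 and 32.0 ± 0.802%. Within the pro-death sum BAX held 58.8 ± 0.706 and 60.4 ± 3.31%.

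Other ways of forming the balance changed its level and left the KO and SCR1 ranges overlapping. Without BAX the log2 ratio was −0.20 ± 0.053 (SD, n = 3) in SCR1 and −0.16 ± 0.076 (n = 6) in KO, a difference of 0.038 in the opposite direction. From summed CPM it was 0.51 ± 0.051 in SCR1 and 0.48 ± 0.083 in KO. The difference of mean log2(TPM + 1) between pro-survival and pro-death members was 0.74 ± 0.057 in SCR1 and 0.71 ± 0.083 in KO. Hence the sign of the score depends on the unit and on summing or averaging, while the difference between KO and SCR1 stayed between −0.036 and 0.038 over the 6 other ways of forming the score.

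**Figure D4:**
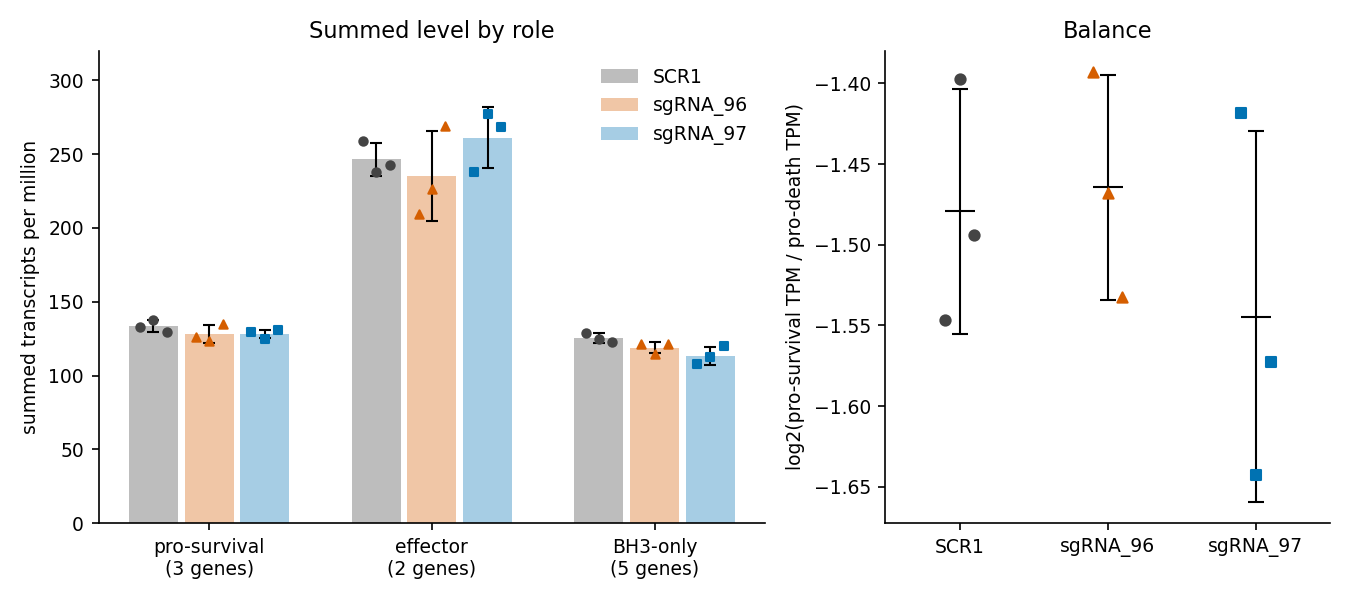
Left, summed TPM of the pro-survival, effector and BH3-only members by group, as bars of the mean with the SD (n = 3) and 1 point per library. Right, the log2 ratio of pro-survival to pro-death TPM per library with mean and SD, where the 3 groups overlap between −1.64 and −1.39.

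Outside the 10 members, the rest of the family gave 2 genes that rose and 1 that fell, of 9 tested, where 20.7% of all genes were called. BIK, a BH3-only gene of the endoplasmic reticulum, fell from 1.09, 0.912 and 1.23 CPM in SCR1 to between 0.195 and 0.757 CPM in KO. Its log2 fold change was −1.55 ± 0.40 (SE, edgeR adjusted p = 0.0131), and all 6 KO libraries lay below all controls. These values rested on 32, 16 and 26 counts in SCR1 and on 4 to 12 counts per KO library, so BIK lay near the floor. HRK, a BH3-only gene best known from neurons, rose from 8.22, 8.61 and 6.90 CPM to between 9.46 and 10.5 CPM (log2 fold change 0.34 ± 0.10, adjusted p = 0.0256 in edgeR). BNIP3L, a mitophagy receptor, rose from 17.6, 17.6 and 16.9 CPM to between 19.0 and 22.8 CPM (0.30 ± 0.077, adjusted p = 0.0115 in edgeR). In all 6 KO libraries HRK and BNIP3L lay above the controls. Without SCR1 replicate 1 the adjusted p was 0.0644 for BIK and 0.0678 for HRK. Without SCR1 replicate 4 it was 0.0682 for BIK, 0.149 for HRK and 0.0562 for BNIP3L.

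The remaining family genes did not pass with both guides together. BCL2L12 had a log2 fold change of −0.25 (adjusted p = 0.0558 in edgeR) and BCL2L13 of −0.15 (adjusted p = 0.0694), with all 6 KO libraries below the controls for both. BCL2L12 passed without sgRNA_96 replicate 1 (0.0408), without sgRNA_97 replicate 4 (0.0439), with DESeq2 (0.0445) and without the filter on low counts (0.0203). BAD had −0.18 (adjusted p = 0.338 in edgeR), BNIP3, a mitophagy receptor, −0.11 (adjusted p = 0.354), BCL2L2 0.02 (adjusted p = 0.844) and BCL2L15 0.30 (adjusted p = 0.623). BNIP3 was read at 27.97, 29.3 and 28.03 CPM in SCR1, at 28.9, 28.8 and 28.05 CPM with sgRNA_96 and at 25.1, 23.3 and 23.3 CPM with sgRNA_97. The last lay below all controls and were called in edgeR (log2 fold change −0.25 ± 0.073, adjusted p = 0.0332), while sgRNA_96 gave 0.0090 ± 0.072 (adjusted p = 0.954). The guides differed by −0.26, with a 95% interval of −0.42 to −0.10 and an edgeR adjusted p of 1. The sgRNA_97 call was lost without sgRNA_97 replicate 3 (0.123), sgRNA_97 replicate 4 (0.0866), SCR1 replicate 1 (0.0794), SCR1 replicate 3 (0.0784) or SCR1 replicate 4 (0.0756), and with the length offset (0.215), without the filter on low counts (0.0659) and in limma on log2(TPM + 1) (0.167). BCL2A1 and BCL2L10, both pro-survival, and BOK and BCL2L14 had too few counts to be tested and were listed at 0 TPM in all SCR1 libraries.

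Of 9 genes listed as mitochondrial partners of the family 7 fell and 0 rose, where 10.6% of all genes were called lower. Their median log2 fold change was −0.18. The list also held a dynein light chain, DYNLL1, which was among those that fell. The list was chosen with earlier results of these data known, so its count is not independent of these data. With sgRNA_96 alone 4 of 9 fell, where 11.2% of all genes were called in either direction. With sgRNA_97 alone 3 of 9 fell, where 15.1% were called. Both guides were compared with the same SCR1 libraries, so these counts are not independent of each other. MTCH2, the outer membrane receptor for cleaved BID, fell by 15.6% (adjusted p = 0.00256 in edgeR). SLC25A5, an ADP/ATP carrier, fell by 15.4% (adjusted p = 0.0012). VDAC1, the outer membrane channel that BCL2 family proteins bind, fell by 12.1% (adjusted p = 0.0144). DYNLL1, the dynein light chain that tethers BIM to microtubules, fell by 11.5% (adjusted p = 0.0194). For all of these, every KO library lay below every control. Without SCR1 replicate 1 the adjusted p of DYNLL1 was 0.113, and without SCR1 replicate 4 that of VDAC1 was 0.0829.

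Of 13 apoptosome and caspase genes 4 fell and 1 rose, where 20.7% of all genes were called. ENDOG, a mitochondrial nuclease, fell by 32.8% (adjusted p = 0.00283 in edgeR). CYCS, cytochrome c itself, fell by 11.6% (adjusted p = 0.0096), and AIFM1, a mitochondrial flavoprotein released in cell death, fell by 13.2% (adjusted p = 0.0128). CASP10, an initiator caspase of death receptors, rose by 15.3% (adjusted p = 0.0299). Without SCR1 replicate 1 the adjusted p was 0.0821 for AIFM1 and 0.118 for CASP10, and without SCR1 replicate 4 it was 0.053 for CYCS and 0.066 for CASP10. The CASP10 call was also lost without SCR1 replicate 3 (0.0907), sgRNA_96 replicate 3 (0.0674) or sgRNA_97 replicate 1 (0.0513).

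Of 7 caspase inhibitors and antagonists tested, 1 fell and 1 rose, where 20.7% of all genes were called. BIRC5 (survivin), which also works in chromosome segregation, fell by 17.9% (adjusted p = 8.1e-04 in edgeR), and BIRC6, a large ubiquitin ligase, rose by 14.5% (adjusted p = 0.0186). Among 7 death receptor genes 2 rose and 0 fell, where 10.1% of all genes were called higher. TNFRSF10B, the TRAIL receptor DR5, rose from 73.3, 70.2 and 69.1 CPM in SCR1 to between 81.2 and 91.3 CPM in KO (log2 fold change 0.29 ± 0.049, adjusted p = 6.3e-04 in edgeR). TNFRSF1A, a TNF receptor, rose by 14.8% (adjusted p = 0.0445). Without SCR1 replicate 1 and without SCR1 replicate 4, BIRC6 had an adjusted p of 0.125 and 0.0764 and TNFRSF1A of 0.0745 and 0.119. TNFRSF1A was also lost without SCR1 replicate 3 (0.18), sgRNA_96 replicate 1 (0.0598), sgRNA_96 replicate 3 (0.0877), sgRNA_97 replicate 4 (0.0661) and with the replicate number as a block (0.0502).

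Transcription factors with known sites or effects on BCL2 family genes went both ways, with 3 of 12 tested rising and 2 falling, where 20.7% of all genes were called. FOXO1, a forkhead factor of B cells, rose from 149, 157 and 145 CPM in SCR1 to between 181 and 213 CPM in KO (log2 fold change 0.37 ± 0.053, adjusted p = 1.6e-04 in edgeR). FOXO3, which is known to activate BCL2L11, rose by 16.9% (adjusted p = 0.0195), while BCL2L11 itself fell. Whether the 2 changes are linked was not tested. E2F1 fell by 15.4% (adjusted p = 0.00482) and MYB, an activator of BCL2, fell by 10.4% (adjusted p = 0.0187). Without SCR1 replicate 1 the adjusted p was 0.144 for FOXO3, 0.0594 for E2F1 and 0.0933 for MYB. Without SCR1 replicate 4 it was 0.0739 for FOXO3, and without SCR1 replicate 3 it was 0.0914 for MYB.

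Genes that control the turnover of MCL1 and BH3 proteins held the largest rise of these lists. FBXW7, the substrate receptor of a ubiquitin ligase that acts on MCL1 as well as on MYC, was read at 66.9, 73.3 and 64.6 CPM in SCR1. Levels rose to 101, 123 and 117 CPM with sgRNA_96 and to 121, 128 and 115 CPM with sgRNA_97. The groups were far apart, and log2 expression rose by 0.78 ± 0.067 (SE, edgeR adjusted p = 1.5e-06). BTRC, a related substrate receptor, rose by 15.6% (adjusted p = 0.0165), and 6 of 8 genes of this list did not pass, where 20.7% of all genes were called. Without SCR1 replicate 1 the adjusted p of BTRC was 0.0636, and without SCR1 replicate 4 it was 0.0978.

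Several of these calls were lost in other tests. ENDOG, BIRC5, TNFRSF10B, MTCH2, SLC25A5, FOXO1 and FBXW7 were called in all 17 alternatives to the edgeR test. With the transcript length offset the edgeR calls of HRK (adjusted p = 0.12), BNIP3L (0.172), CASP10 (0.0843), AIFM1 (0.0775), BIRC6 (0.104), TNFRSF1A (0.0592), DYNLL1 (0.0687), FOXO3 (0.0671) and BTRC (0.0657) were lost. In limma on log2(TPM + 1), which changes both the unit and the test, the adjusted p was 0.209 for HRK, 0.228 for BNIP3L, 0.124 for CASP10, 0.104 for AIFM1, 0.166 for BIRC6, 0.0728 for VDAC1, 0.0539 for DYNLL1, 0.206 for FOXO3, 0.0608 for MYB and 0.145 for BTRC. BIK, CYCS and E2F1 were called with the length offset and in limma on log2(TPM + 1), where BIK was at −0.80, and were lost in limma without the filter (0.0573, 0.0684 and 0.0617).

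**Figure D5:**
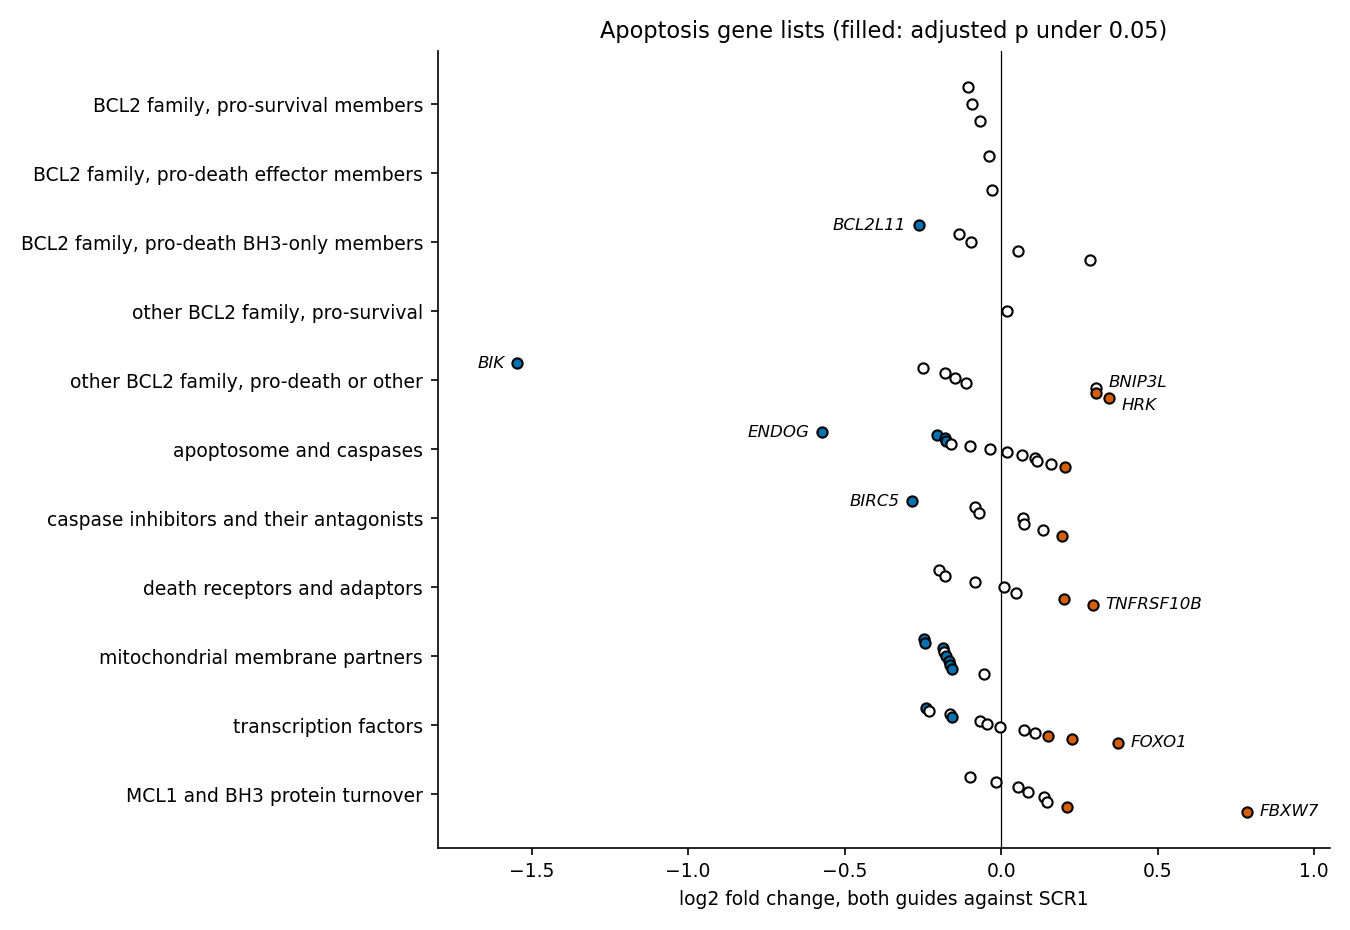
edgeR log2 fold change of both guides against SCR1 for the tested genes of each list, with 1 point per gene, filled where the adjusted p is under 0.05. BIK (−1.55, with 4 to 32 counts per library) and ENDOG (−0.57) lie farthest left and FBXW7 (0.78) farthest right. The genes listed as mitochondrial partners, DYNLL1 included, all lie below 0.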

How the data were processed

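RNA of 9 HAL-01 libraries was measured by poly(A) RNA-seq. The authors trimmed reads with TrimGalore, aligned them with STAR and quantified transcripts with Salmon (1.10.1 and GRCh38 per the submitters' processing notes), and deposited estimated counts and TPM per transcript. Whether counting used strand is not given in the sources used here; gene models that overlap members had at most 5 counts in any library. All 252835 transcripts matched GENCODE release 44, which also gave the coding sequences.

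Counts were added up by gene and rounded to whole numbers. Genes passing filterByExpr (minimum count 10) were scaled by TMM and entered the quasi-likelihood test (edgeR 4.0.16, R 4.3.3), with Benjamini-Hochberg adjustment over 14436 genes and a threshold of 0.05. KO against SCR1 was fitted with 2 classes, the guides with 3 groups. Level comparisons used TPM. Scaling by TMM placed the median of all genes at 0.003 in log2. The edgeR test of KO against SCR1 was first run on simulated data with changes larger than those of any member. Recovery of changes as small as those of the members was thus not checked. The pass criterion was narrowed after the first run to leave out genes with low counts.

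The text names all members, MEF2C, the other family genes tested, and from each further list up to 4 genes called with the largest change. Members and lists were chosen with earlier results of these data known. Alternatives were DESeq2 1.42.0, limma 3.58.1 on log2(TPM + 1) and log2(TPM + 0.1), RLE factors, no filter, a length offset, a replicate block and leaving out each library. The balance without BAX and from protein-coding transcripts was added after the data were seen. The chi-square between replicates was 4.35 to 8.73 times that of sampling, so none was a repeated sequencing of the same library. This check cannot tell separate cultures from separate libraries made from the same culture or RNA.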

Additional observations from a re-analysis of the deposited data

Results flagged for a closer look

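Over the 6 KO libraries, 12 values were checked for a library far from the others (the CPM of each member and of MEF2C, and the balance), and 1 stood apart, where chance would give about 0.6. MEF2C was at 553 CPM in sgRNA_97 replicate 1 and between 495 and 510.1 CPM in the other 5. In the same library BCL2 had its highest KO value, 209 CPM. BAX (107 CPM), BAK1 (37.9 CPM), PMAIP1 (37.2 CPM) and BMF (6.49 CPM) had their lowest KO values there. Whether this library differed in editing was not tested.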

How the results depend on the processing

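Of 935 values of single genes recomputed under alternatives, 808 kept their direction and their side of the threshold, 97 lost the call, 12 gained it and 18 changed sign. The sign changes were small or in genes with few counts. BAX was at 0.0069 with the length offset and at 0.0050 in the 3 limma settings on TPM, BAK1 was at 0.010 without SCR1 replicate 1, and BBC3 was at −0.0071 and BCL2L2 at −0.0011 without SCR1 replicate 3. On leaving out a library BAK1 ranged from −0.083 to 0.010, BBC3 from −0.0071 to 0.11 and BCL2L2 from −0.0011 to 0.036. BCL2L15 was at −0.69 with the length offset, at −0.21 in limma on log2(TPM + 1) with and without the filter, and at −0.44 on log2(TPM + 0.1). BNIP3 with sgRNA_96 was at −0.0003 without the filter on low counts, −0.025 with the length offset, −0.017 in limma on log2(TPM + 1) with and without the filter, −0.018 on log2(TPM + 0.1), and ran from −0.0048 (without SCR1 replicate 1) to 0.0272 (without SCR1 replicate 3) over the fits that left out 1 library, with −0.0007 without SCR1 replicate 4.

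The 2984 genes called between KO and SCR1 became 1524 with the length offset, 1240 in limma on log2(TPM + 1), 1246 on log2(TPM + 0.1) and 648 without a filter, and 1503 (without SCR1 replicate 1) to 3547 (without sgRNA_96 replicate 1) when a library was left out. Without SCR1 replicate 4 they were 1813. For sgRNA_96 the 1615 genes became 662, 448, 451 and 201 in the same order, and 743 (without sgRNA_96 replicate 3) to 1989, with 774 without SCR1 replicate 1 and 916 without SCR1 replicate 4. For sgRNA_97 the 2181 genes became 924, 706, 706 and 311, and 987 (without SCR1 replicate 1) to 2451, with 1056 without sgRNA_97 replicate 3 and 1243 without SCR1 replicate 4. Between the guides the 3 genes became 8 with DESeq2, 106 without a filter on low counts, 1 with the length offset, 0 in both filtered limma settings, 1 in unfiltered limma, and 1 (without sgRNA_97 replicate 1 or 4) to 3 on leaving out a library. The cause was not tested.

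Members called between KO and SCR1 numbered 2 with DESeq2, 0 with the length offset, 0 in all 3 limma settings, and 0 to 2 on leaving out a library. They numbered 0 without SCR1 replicate 1, and 2 without sgRNA_97 replicate 1 or SCR1 replicate 3. For sgRNA_96 the 1 member became 0 with the length offset, in all 3 limma settings, and without sgRNA_96 replicate 3, SCR1 replicate 1 or SCR1 replicate 3 (0 to 1 on leaving out a library). For sgRNA_97 the count was 0 to 1, with 1 without sgRNA_96 replicate 1 or SCR1 replicate 4. Between the guides it stayed at 0 in every alternative run.

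The difference of the balance lay between −0.059 (without SCR1 replicate 1) and 0.016 (without SCR1 replicate 3) on leaving out a library, and at −0.0001 with the other family members. Libraries with the same replicate number did not deviate together over the genes as a whole (correlations −0.098 to 0.083). A shared culture or batch that acts on few genes could be missed, so this does not settle whether equal numbers mark paired samples. With the replicate number as a block 2936 genes were called between KO and SCR1, 1576 for sgRNA_96, 2082 for sgRNA_97 and 1 between the guides, with 1, 1, 0 and 0 members. The block ended the TNFRSF1A call and changed no other call of a named gene. BMF rested on 98 to 173 counts per library, and its 95% interval, 0.016 to 0.55, was the widest of the 10 members.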
